A study of Mus musculus with 25 samples.

Results

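Pam knockout and wild-type mouse atria were compared within the 10 of 25 RNA-sequencing libraries chosen by their level of Bmp10, which lay under 1000 CPM (reads of a gene per 1000000 reads counted). Of these, 5 were of wild-type mice (WM1, WM2, WM3, WF10 and WF12) and 5 of mice labelled as PAM knockouts (KM01, KF14, KF16, KF18 and KF19). W or K in a name gives the genotype and M or F the sex, so 3 of 5 wild-type and 1 of 5 knockout libraries were male. All mice were untreated adults aged 60 to 90 days, and the tissue is given as atrium for every library. The strain, the Pam allele, the extent of the deletion and any Cre driver are not given in the sources used here. RNA was taken from individual atria, but nothing says that each library came from another animal, so p-values measure the spread between these libraries.

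Pam encodes a copper-dependent monooxygenase that amidates the C-terminus of peptides in the secretory pathway, an ending that many peptide hormones need for full activity. Atrial myocytes, which store atrial natriuretic peptide in granules, hold more of the enzyme than most other cells, as a major protein of the granule membrane. Bmp10 encodes a growth factor of right atrial myocytes, and Hamp the hormone hepcidin, which is also transcribed in the right atrium.

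Bmp10 chose the libraries, and its values are a description. In wild-type libraries it had 0.433 CPM in WM1, 1.25 in WM2, 0.929 in WM3, 15.6 in WF10 and 669 in WF12. Knockout libraries had 46.5 CPM in KM01, 1.26 in KF14, 76.5 in KF16, 444 in KF18 and 58.3 in KF19. The values were far from uniform, with WF12 nearest to the limit of 1000 CPM on the inside. The nearest library outside was WM4, at 1999 CPM, and the 15 Bmp10-high libraries (7 wild type, 8 knockout) reached 7597 CPM. Hamp, which the rule did not use and which was chosen with its values known, ran from 1.34 to 26.3 CPM in the Bmp10-low libraries (median 13.6) and from 57.7 to 183 CPM in the others (median 133), without overlap. Within the Bmp10-low libraries the genotypes overlapped in Hamp, at 1.34 to 23.4 CPM in wild type and 3.61 to 26.3 in knockout.

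**Figure D1:**
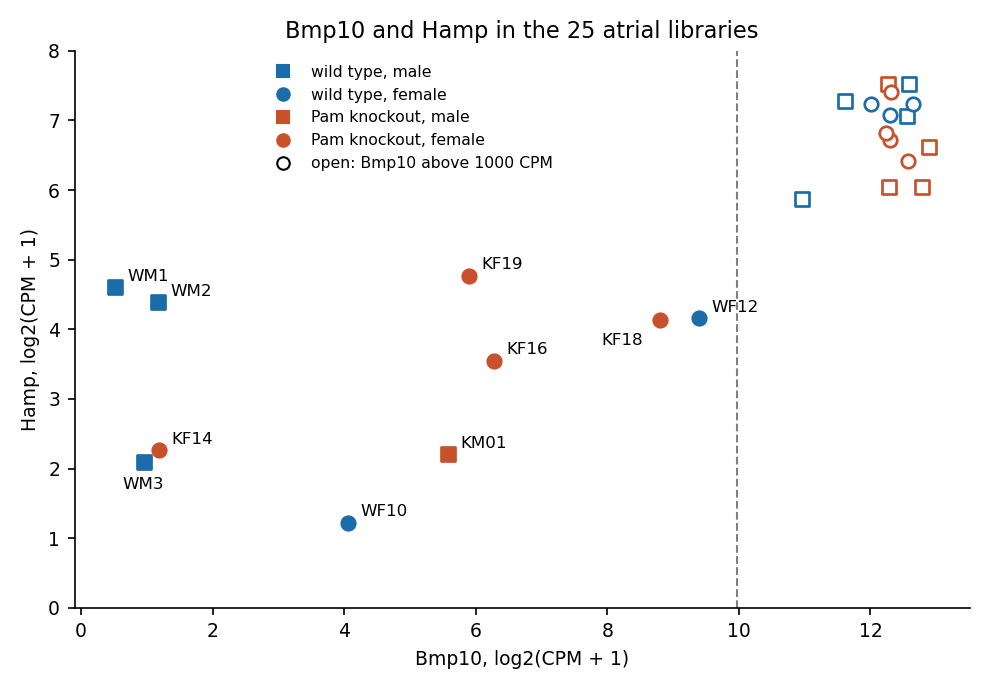
Bmp10 (horizontal) and Hamp (vertical), each as log2(CPM + 1), in all 25 libraries, 1 point each; colour gives genotype and shape gives sex. Filled, named points left of the dashed line at 1000 CPM are the 10 Bmp10-low libraries, which all lie below the open points in Hamp.

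WF10 and KM01 stood apart from the other 8 libraries. They held 2246887 and 2494461 reads, against 4303451 to 6772947 in the rest, and mitochondrial genes took 30.2% and 18.5% of their CPM, against 8.72% to 12.97%. In the mitochondrial ribosomal RNAs, WF12 went with WF10 and KM01 did not. For mt-Rnr1 there were 49485 CPM in WF10 and 18392 in WF12, and 1666 to 5776 CPM in the other 8 libraries. For mt-Rnr2 there were 88561 and 31160 CPM, and 3958 to 14718 CPM in the other 8. A floor of 3 reads, which covers counting error only, was 1.34 CPM in WF10 and 1.20 CPM in KM01. Of the 14005 genes tested, WF10 held the highest or the lowest of the 10 values for 49.1% and KM01 for 45.8%, against 6.12% to 19.4% for each other library. WF10 was the lowest for 43.5% of genes. Xist, the RNA of the inactive X chromosome, was at 317 to 789 CPM in the 6 libraries labelled female and at 0.178 to 1.16 CPM in the 4 labelled male, and the Y-linked Ddx3y was at 0 to 6.74 and 135 to 202 CPM. By the names in the labels the libraries form sets, and the sources used here do not say what these mean. WM1, WM2 and WM3 share the LARA set with KF14, KF16 and KF18, so within it genotype and sex cannot be told apart. WF10 and WF12 share the CGI set with KF19, and KM01 belongs to a set of knockout males. With sex as a term, the genotype difference gave KM01 a weight of 0.36, WF10 and WF12 a weight of -0.32 each, the 4 knockout females 0.16 each and the 3 wild-type males -0.12 each.

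**Figure D2:**
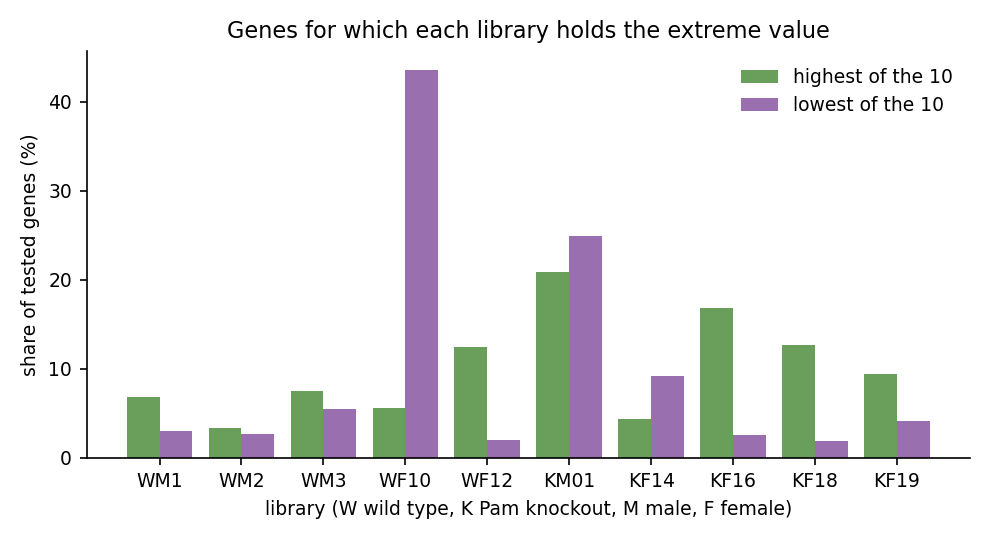
Share of the 14005 tested genes (%) for which each of the 10 Bmp10-low libraries held the highest value (green bars) or the lowest value (purple bars). WF10 was lowest for 43.5% of genes and KM01 was highest for 20.9% and lowest for 24.97%.

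Pam was lower in each of the 5 knockout libraries than in any wild-type library. It had 3055 CPM in WM1, 3856 in WM2, 5334 in WM3, 1409 in WF10 and 5661 in WF12. In the knockouts it had 317 CPM in KM01, 358 in KF14, 471 in KF16, 497 in KF18 and 295 in KF19. The groups did not overlap, and WF10 was the lowest of the wild-type libraries by a wide margin. The means were 3863 ± 1738 CPM (SD, n = 5) and 388 ± 91.6 CPM (SD, n = 5). The difference of mean log2(CPM + 1) was -3.19, or 9.12-fold lower in knockouts (exact two-sided permutation p = 0.00794, the lowest possible with 252 splits of 5 against 5). Without WF10 and KM01 it was -3.45, or 10.9-fold (exact two-sided permutation p = 0.0286, the lowest possible with 70 splits). The gene is on chromosome 1, minus strand, from 97795114 to 98095646 (GRCm38). In bulk samples, fewer cells of a type and less RNA per cell cannot be told apart.

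Across all genes, Pam fell, and Fam46b and Ccl8 were the only genes called higher in knockouts when all 10 libraries were fitted with a sex term (limma, Benjamini-Hochberg adjusted p under 0.05). That made 3 calls among 14005 genes tested (0.0214%), with 1 lower (0.00714%) and 2 higher (0.0143%). Knockout minus wild type, Pam came to a log2 of -3.12 ± 0.39 (SE; limma adjusted p = 0.0207). Fam46b and Ccl8 did not separate the genotypes library by library. Without WF10 and KM01, a fit that keeps the sex term sets the 4 knockout females against WF12 alone, and a fit that drops it sets 3 males and WF12 against 4 females. Values from both are given. Neither Fam46b nor Ccl8 was called in either fit, but their differences were 2.02 and 1.92 with the sex term and 0.41 and 0.07 with no sex term. At an unadjusted p under 0.05 there were 1923 genes (13.7%), of which 1399 were higher (9.99%) and 524 lower (3.74%). With median-ratio scaling these became 1277 higher and 1102 lower, and the median log2 difference of all genes moved from 0.10 to -0.01. With all 10 libraries and no sex term, 298 genes had an unadjusted p under 0.05, and Pam alone was called. Leaving out 1 library gave 506 calls without WF12, 110 without KM01 and 0 without KF14 or KF16, where the limma adjusted p of Pam was 0.139 and 0.0731. It gave 1 call, Pam, without any of WM1, WM2, WM3, WF10 and KF18.

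Fam46b belongs to a family of non-canonical poly(A) polymerases. It had 5.20 CPM in WM1, 5.34 in WM2 and 5.58 in WM3, but 0 in WF10 and 0.443 in WF12. The floor of 3 reads was 1.34 CPM in WF10 and 0.443 CPM in WF12, so these values lay under it or at it. Knockout levels were 18.04 CPM in KM01, 5.48 in KF14, 6.94 in KF16, 3.11 in KF18 and 4.57 in KF19. The groups overlapped: both wild-type females were low, KM01 was high, and wild-type males lay among the knockout females. The log2 difference was 2.03 ± 0.29 (SE; limma adjusted p = 0.0323). Leaving out WF10 and KM01 gave 2.02 with the sex term (limma adjusted p = 0.171) and 0.41 with no sex term (limma adjusted p = 0.9996), and the difference was -0.10 within the LARA set.

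Ccl8, a chemokine that attracts monocytes, had the same layout. It had 14.3 CPM in WM1, 15.3 in WM2, 16.03 in WM3, 0.890 in WF10 and 1.92 in WF12. The knockouts had 95.0 CPM in KM01, 12.6 in KF14, 19.1 in KF16, 8.05 in KF18 and 5.002 in KF19. Again WF10 and WF12 were lowest and KM01 highest, and the groups overlapped. The value of WF10 lay under its floor of 3 reads (1.34 CPM). Its log2 difference was 2.35 ± 0.34 (SE; limma adjusted p = 0.0323), and -0.26 within the LARA set. In the fits that lack WF10 and KM01 it was 1.92 with the sex term (limma adjusted p = 0.405) and 0.07 with no sex term (limma adjusted p = 0.9996).

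**Figure D3:**
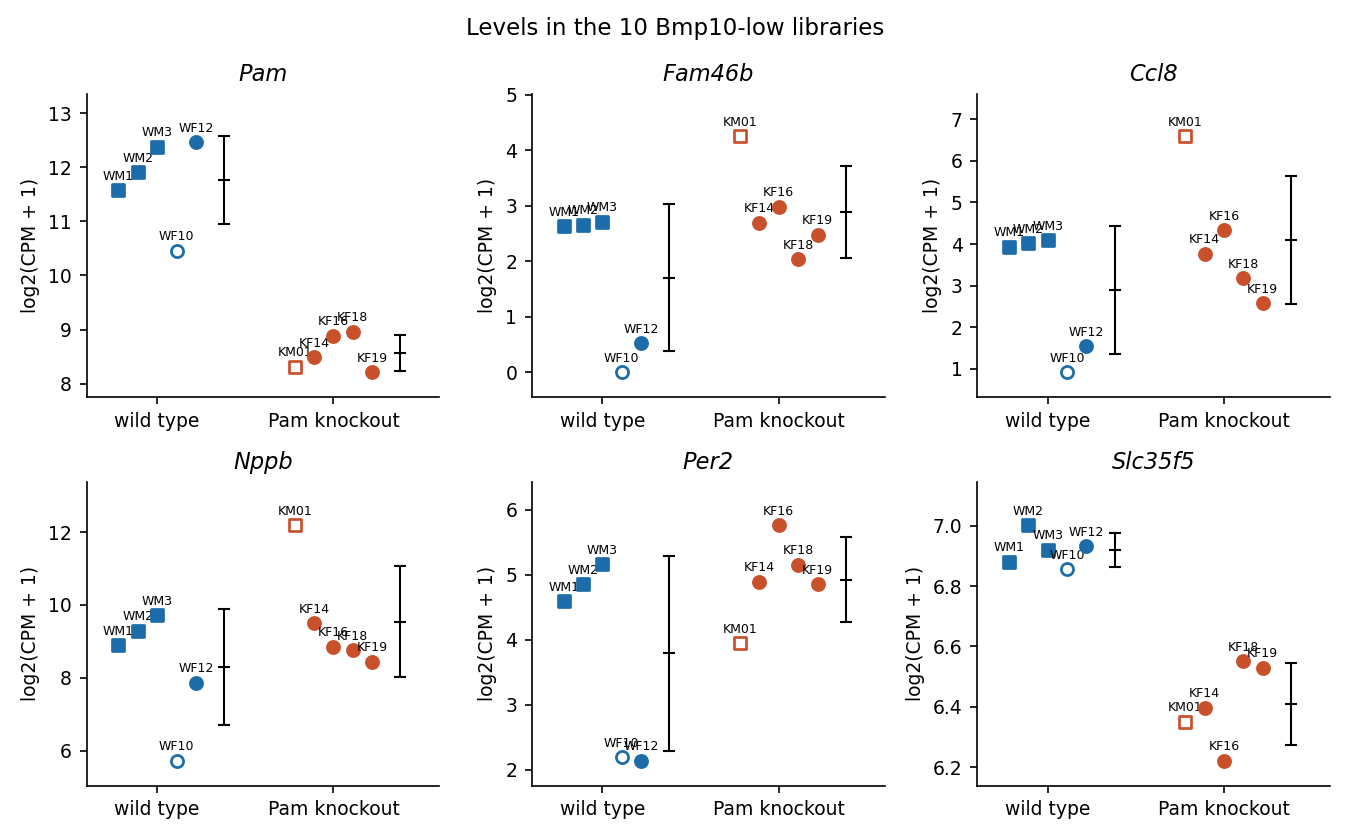
Levels as log2(CPM + 1) in the 10 Bmp10-low libraries for Pam, Fam46b, Ccl8, Nppb, Per2 and Slc35f5; squares are males, circles females, and open symbols the shallow libraries WF10 and KM01. Bars give the mean and SD of 5 libraries; Pam and Slc35f5 separate the genotypes, while the other 4 genes overlap.

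The genes that came next did not pass the test. Higher in the fit were Nppb, Ctgf, Efhd2, Rpl35, Wfdc17, Gadd45b, Ccl9 and Ms4a6d. Lower were Itgb6, Npas2, Myl3, Nfe2l3, Vps13a, Slitrk6, Kcnj2, Arap2 and Zfp644. Their limma adjusted p ran from 0.120 to 0.165. In all 10 higher genes, Fam46b and Ccl8 included, KM01 was the highest library, WF10 the lowest and WF12 the second lowest. In all 9 lower genes KM01 was the lowest library, and the highest was WF10 in 5 and WF12 in 4. The libraries at the ends were thus the 3 with the most weight in the fit.

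Nppb, which encodes the B-type natriuretic peptide of stretched heart muscle, had 474 CPM in WM1, 624 in WM2, 845 in WM3, 51.6 in WF10 and 232 in WF12. Among knockout libraries there were 4686 CPM in KM01, 718 in KF14, 459 in KF16, 429 in KF18 and 345 in KF19. All values except those of WF10, WF12 and KM01 lay between 345 and 845 CPM. The fitted log2 difference was 2.38 ± 0.41 (SE; limma adjusted p = 0.120). It was 1.01 with the sex term and -0.06 with no sex term once WF10 and KM01 were left out. Ctgf, a matrix-associated growth factor, was at 868 CPM in KM01, 42.3 in WF10 and 62.2 in WF12, and at 170 to 581 CPM in the other 7 libraries. Rpl35, a protein of the large ribosomal subunit, was at 424 CPM in KM01, 52.5 in WF10 and 75.2 in WF12, and at 109 to 166 CPM in the other 7. Myl3, the essential light chain of ventricular myosin, had another layout. It had 784 CPM in WM1, 805 in WM2, 664 in WM3, 1948 in WF10 and 383 in WF12, and 66.9 CPM in KM01, 410 in KF14, 200 in KF16, 135 in KF18 and 308 in KF19. Wild-type libraries were high apart from WF12, which lay among the knockouts. The log2 difference of Myl3 was -2.42 ± 0.48 (SE; limma adjusted p = 0.165). It was -0.66 with the sex term and -1.39 with no sex term without WF10 and KM01. With log2 Bmp10 as a further term beside sex and all 10 libraries, Myl3 was called with Pam, at -2.16 (limma adjusted p = 0.0386). Bmp10 also chose the libraries, so that call is given as a description only. Myl3 was not called without WF10 and KM01, with or without the sex term.

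Myl2, the regulatory light chain of ventricular myosin, differed widely between libraries of each genotype. It had 2237 CPM in WM1, 2015 in WM2, 1196 in WM3, 4724 in WF10 and 47.4 in WF12, and 6.82 CPM in KM01, 1216 in KF14, 369 in KF16, 28.4 in KF18 and 10.9 in KF19. Both genotypes held libraries above 1000 and below 100 CPM. The log2 difference of Myl2 was -4.15 with all libraries, and without WF10 and KM01 it was 1.21 with the sex term and -2.68 with no sex term. Of 14 ventricle markers tested, 0 were called, and 0 higher and 3 lower had an unadjusted p under 0.05. Of all genes, 9.99% were higher and 3.74% lower at that limit. The summed ventricle markers were at 8081 to 15565 CPM in wild type and 7675 to 13281 CPM in knockout. Whether an unequal share of ventricular tissue took part in the differences of Myl2 and Myl3 was not tested.

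Without WF10 and KM01, 4 libraries remained in each genotype, with 3 males among the wild types and none among the knockouts. With no sex term Pam was the only gene called (0.00714% of 14005; limma log2 difference -3.45, adjusted p = 3.29e-05), and 426 genes (3.04%) had an unadjusted p under 0.05. With a sex term, the difference set 4 knockout females against WF12, and Pam and Per2 were called (0.0143%), with 824 genes (5.88%) at an unadjusted p under 0.05. Of 88 genes followed across settings, Pam included, 78 kept the sign of their difference without both libraries and with the sex term, 72 with no sex term, and 54 within the LARA set.

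**Figure D4:**
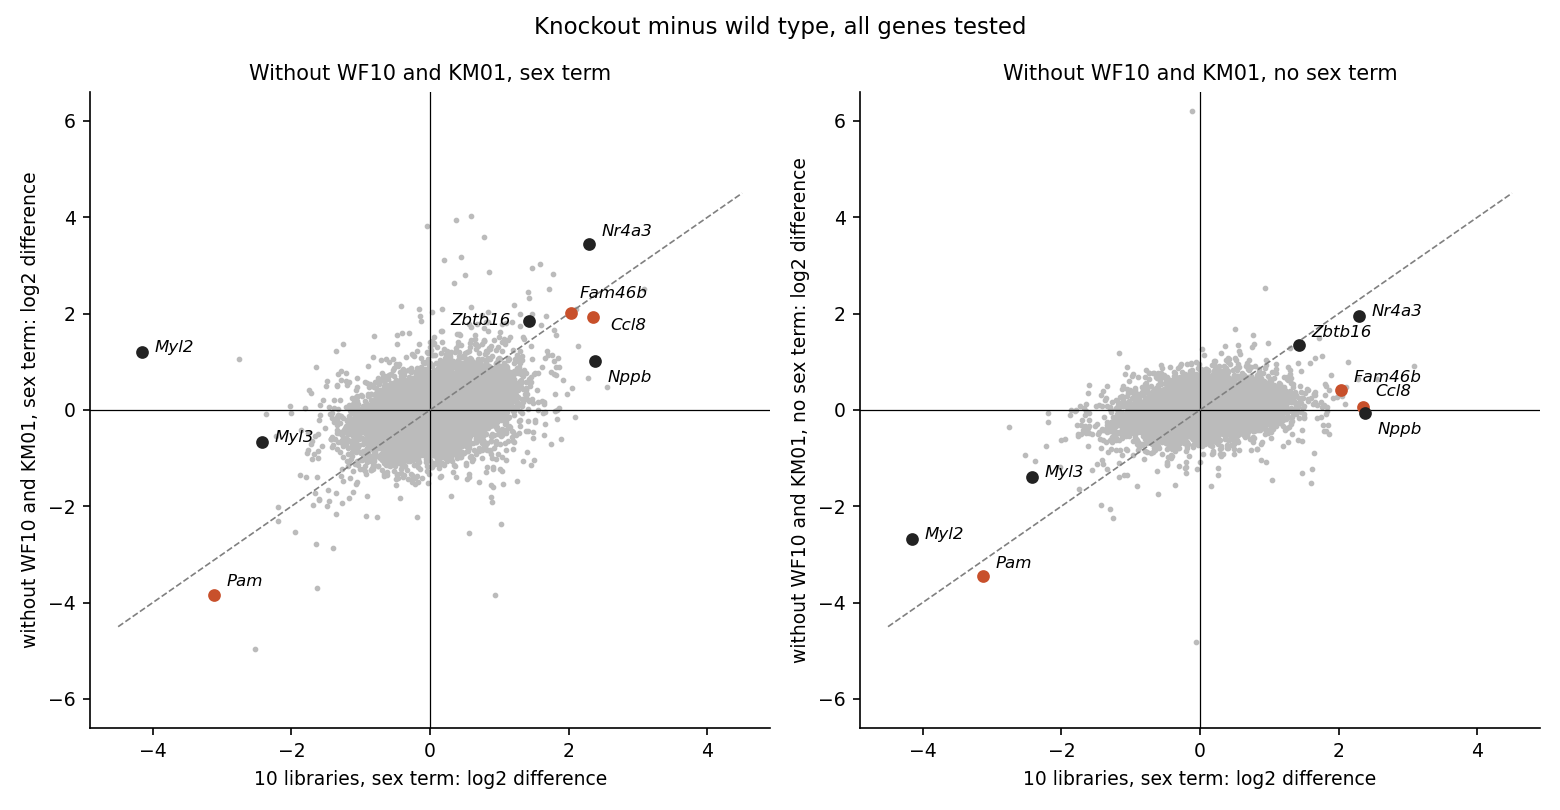
Log2 difference, knockout minus wild type, of each of the 14005 genes with all 10 libraries and a sex term (horizontal) and without WF10 and KM01 (vertical), with the sex term at left and with no sex term at right; dashed lines mark equal values. Orange points were called in the fit of 10 libraries: Pam lies near the line in both panels (-3.83 and -3.45 on the vertical axis), while Fam46b (2.02 and 0.41) and Ccl8 (1.92 and 0.07) lie near it at left only; black points are other named genes.

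The circadian clock is a loop of transcription factors and their repressors that runs in heart cells. Per2, a repressor of the loop, named here with its values already known, had 23.2 CPM in WM1, 27.9 in WM2, 34.9 in WM3, 3.56 in WF10 and 3.40 in WF12. It was at 14.4 CPM in KM01, 28.7 in KF14, 53.4 in KF16, 34.6 in KF18 and 27.8 in KF19. The wild-type females were low, and wild-type males overlapped the knockouts. Its log2 difference with a sex term was 3.03 without WF10 and KM01 (limma adjusted p = 0.00706), but 1.59 with them (limma adjusted p = 0.245) and 0.40 within the LARA set. With no sex term it was 0.98 without both libraries.

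Arntl, an activator of the loop, had the opposite layout. WM1 had 9.32 CPM, WM2 8.90, WM3 11.6, WF10 30.7 and WF12 53.3. In knockouts it had 14.4 CPM in KM01, 9.48 in KF14, 6.52 in KF16, 8.60 in KF18 and 3.04 in KF19. WF10 and WF12 were the highest, and wild-type males lay among the knockouts. The log2 difference was -1.41 ± 0.50 (SE; limma adjusted p = 0.243), and -0.26 within the LARA set. It reached -2.87 without WF10 and KM01 and with the sex term (limma adjusted p = 0.0605) and was -1.13 with no sex term. Npas2, a partner of Arntl, was at 10.7 CPM in WF10 and 10.5 in WF12 and at 0.802 to 4.03 CPM in the other 8 libraries. Of 22 clock genes tested, 0 were called. At an unadjusted p under 0.05, 6 were higher and 4 lower, against 9.99% and 3.74% of all genes. The median log2 difference of the 22 was 0.39 with all libraries. Without WF10 and KM01 it was 1.08 with the sex term and 0.46 with no sex term. The sources used here do not give the time of day at which tissue was taken, and its part in these differences was not tested.

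The genotypes separated without overlap, 5 against 5, for 46 genes, of which 31 were higher (0.221% of genes tested) and 15 lower (0.107%) in knockouts. Without WF10 and KM01, 4 against 4, 89 genes were higher (0.635%) and 135 lower (0.964%), a count that holds the 46 by construction. With labels placed at random, a gene separates in either direction with a probability equal to the smallest exact two-sided permutation p. That is 0.00794 for 5 against 5 and 0.0286 for 4 against 4. The shares of genes seen lay below these, so separation alone does not mark a gene as changed by genotype. Pam was the only called gene of the 46, and 39 lay under an unadjusted p of 0.05. In 31 of the 46 the difference had the same sign in the Bmp10-high libraries, as it did in 6779 of all 14005 genes (48.4%). The examples that follow were chosen after their values were seen, and none passed the limma test across all genes.

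Slc35f5, a member of a family of nucleotide sugar carriers, kept a narrow range in each genotype. It had 117 CPM in WM1, 127 in WM2, 120.1 in WM3, 115 in WF10 and 121 in WF12, and 80.6 CPM in KM01, 83.2 in KF14, 73.6 in KF16, 92.8 in KF18 and 91.3 in KF19. WF10 and KM01 lay within their own groups. Its log2 difference was -0.51 ± 0.20 (SE; limma adjusted p = 0.282) with them, and -0.51 without them in the fits with and without a sex term. Slc35f5 lies on the plus strand of chromosome 1 at 125560595 to 125595820 (GRCm38). Of the 46 genes, 6 (13.04%) lie on that chromosome, which holds 847 of the genes tested (6.05%). The 6 include Slc35f5 and Pam, the knocked-out gene itself. The rest, Adhfe1, Bend6, Gm17971 and Usp21, start at 9547948, 33852052, 55066264 and 171281945. In the Bmp10-high libraries the mean of Slc35f5 was 105 ± 12.1 CPM (SD, n = 7) for wild type and 89.6 ± 16.6 CPM (SD, n = 8) for knockout.

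Oxct1, which starts the breakdown of ketone bodies in mitochondria, had 945 CPM in WM1, 959.8 in WM2, 986 in WM3, 996 in WF10 and 976 in WF12. Knockout levels were 253 CPM in KM01, 908 in KF14, 617 in KF16, 818 in KF18 and 595 in KF19. Wild-type libraries lay within a narrow band, and knockout libraries were spread below it, with KM01 far below the rest. The log2 difference was -0.98 ± 0.30 (SE; limma adjusted p = 0.201). It was -0.43 with the sex term and -0.42 with no sex term once WF10 and KM01 were left out. Car4, a carbonic anhydrase of the cell surface, was at 7.12 to 14.9 CPM in wild type and 0.802 to 6.32 CPM in knockout. Aqp7, a channel for water and glycerol, was at 5.58 to 10.2 CPM in wild type and 2.11 to 4.78 CPM in knockout.

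Among the genes higher in all knockout libraries, Slc6a6, the taurine transporter, was at 37.4 to 55.3 CPM in wild type and 56.9 to 128 CPM in knockout. Mafk, a small Maf transcription factor, was at 13.4 to 28.1 CPM in wild type and 32.4 to 76.6 CPM in knockout. Fbxl22, an F-box protein of the sarcomere, was at 28.9 to 49.96 CPM and 51.5 to 96.1 CPM, so that the groups nearly touched. Ifit1, an interferon-induced gene, was at 18.3 to 24.1 CPM in wild type and 25.5 to 66.5 CPM in knockout. Without WF10 and KM01 and with no sex term, the log2 differences of Slc6a6, Mafk, Fbxl22 and Ifit1 were 0.59, 0.63, 0.76 and 0.52. With the sex term they were 0.72, 0.76, 0.73 and 0.39, and limma called none of them in either fit.

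Genes around the function of Pam were read from lists that were chosen with earlier results of these data known. Of the precursors of amidated peptides, 4 of 42 listed genes could be tested, 0 were called, and their median log2 difference was 0.08. It was 0.10 with the sex term and 0.02 with no sex term without WF10 and KM01. Adm, the precursor of adrenomedullin, was at 2.67 to 14.2 CPM in wild type and 7.83 to 13.5 CPM in knockout, with WF10 the lowest. Of 17 genes of secretory granules and prohormone cleavage, 0 were called and 0 lay under an unadjusted p of 0.05, with a median of -0.07. Furin, a protease that cleaves prohormones, was at 25.6 to 63.2 CPM in wild type and 35.8 to 97.4 CPM in knockout. Of 14 genes of Pam's interactors and adaptors, 0 were called, with a median of -0.04. All genes tested had a median of 0.10.

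Copper handling genes, which serve the metal that Pam needs, had 0 called of 29 tested. At an unadjusted p under 0.05, 5 were higher and 2 lower, against 9.99% and 3.74% of all genes. The median log2 difference of the 29 was 0.29 with all 10 libraries. Without WF10 and KM01 it was -0.11 with the sex term and -0.16 with no sex term. Steap4, a metalloreductase that reduces copper and iron, had 53.96 CPM in WM1, 51.4 in WM2, 44.4 in WM3, 28.5 in WF10 and 43.6 in WF12. The knockouts had 21.6 CPM in KM01, 34.6 in KF14, 22.3 in KF16, 29.1 in KF18 and 19.1 in KF19. WF10 alone lay among the knockouts, and the other 4 wild-type libraries lay above all 5. Its log2 difference was -0.70 ± 0.26 (SE; limma adjusted p = 0.258), and -0.74 without WF10 and KM01 and with the sex term. With no sex term it was -0.88 (limma unadjusted p = 0.000812, adjusted p = 0.9996). Atox1, a copper chaperone, was at 33.4 CPM in WF10 and at 76.6 to 131 CPM in the other 9 libraries.

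Among 20 atrial peptides and their receptors, 0 were called, with a median of 0.21. Without WF10 and KM01 that median was -0.06 with the sex term and -0.04 with no sex term. Agtr1a, an angiotensin II receptor, was at 6.51 to 22.3 CPM in wild type and 2.81 to 12.4 CPM in knockout, with the ranges overlapping.

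The macrophage, cell cycle, cardiac stress, interferon and ribosomal protein lists had the 5 highest medians of the lists with at least 5 members tested, with all 10 libraries, and 0 of their members were called. Not all immune and stress lists lay on that side. The median log2 difference was -0.29 for 11 B cell genes and 0.010 for 22 heat shock and chaperone genes, against 0.10 for all genes. At an unadjusted p under 0.05, 9.99% of all genes were higher and 3.74% lower. Of 17 macrophage and monocyte genes, 9 higher and 0 lower had an unadjusted p under 0.05, and the median log2 difference was 0.91. KM01 held the highest value for 11 of them and WF10 the lowest for 12. Their summed level was 2845 CPM in KM01, 558 CPM in WF10 and 971 to 1884 CPM in the other 8 libraries. The median was 0.33 with the sex term and -0.20 with no sex term once WF10 and KM01 were left out.

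Among cell cycle genes, 8 of 20 were higher at an unadjusted p under 0.05, with a median of 0.85. Ube2c, a ubiquitin-conjugating enzyme of mitosis, was at 40.9 CPM in KM01 and at 0 to 2.74 CPM in the other 9 libraries. The summed level was 990 CPM in KM01 and 137 to 342 CPM elsewhere, and the median without both libraries was -0.33 with the sex term and -0.14 with no sex term. Cardiac stress genes had 11 of 16 higher at an unadjusted p under 0.05 and a median of 1.17. Without both libraries it was 0.55 with the sex term and -0.05 with no sex term.

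Interferon-stimulated genes had 14 of 26 higher at an unadjusted p under 0.05 and a median of 0.82. Without both libraries it was 0.0075 with the sex term and 0.08 with no sex term. KM01 was the highest library for 19 of the 26 and WF10 the lowest for 19. Isg15, a ubiquitin-like protein, was at 59.3 CPM in KM01 and 6.68 CPM in WF10. It was at 9.67 to 24.1 CPM in the other 8 libraries. Cytosolic ribosomal protein genes had 44 of 44 higher at an unadjusted p under 0.05, with 0 called and a median of 0.90. WF10 held the lowest value for all 44 and KM01 the highest for 41, and without both libraries the median was 0.57 with the sex term and 0.16 with no sex term. The 3 neutrophil genes that could be tested were all highest in KM01, where their sum was 279 CPM. It was 43.2 CPM in WF10 and 1.68 to 9.10 CPM in the other 8 libraries, and S100a9, a calcium-binding protein of neutrophils, was at 167 CPM in KM01 and 0 in WM3. The part of blood or inflammatory cells in the values of KM01 was not tested.

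Lists of fatty acid oxidation, potassium channel and calcium handling genes were among those with medians below that of all genes with all 10 libraries. Glycolysis and citric acid cycle genes, at -0.38, and ventricle markers, at -0.33, were others. Without WF10 and KM01 the glycolysis and citric acid cycle median was -0.087 with the sex term and -0.16 with no sex term. Fatty acid oxidation genes had 0 of 30 called and a median log2 difference of -0.76. At an unadjusted p under 0.05, 0 were higher and 16 lower, against 9.99% and 3.74% of all genes. KM01 held the lowest value for 27 of the 30, and the summed level was 3398 CPM there and 8370 to 13820 CPM in the other 9 libraries. The median was 0.032 with the sex term and -0.21 with no sex term without WF10 and KM01. Acsl1, which activates long-chain fatty acids, was at 55.3 CPM in KM01 and at 156 to 416 CPM elsewhere.

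Cardiac potassium channel genes had 2 higher and 5 lower of 22 at an unadjusted p under 0.05, against 9.99% and 3.74% of all genes. The median of the 22 was -0.32. Without both libraries it was 0.056 with the sex term and 0.17 with no sex term. Kcnj2, the inward rectifier that sets the resting potential, had 74.5 CPM in WM1, 83.1 in WM2, 115 in WM3, 112 in WF10 and 135 in WF12. Among knockout libraries there were 28.9 CPM in KM01, 95.7 in KF14, 49.0 in KF16, 74.1 in KF18 and 48.9 in KF19. KF14 lay within the wild-type range, and the other 4 knockouts lay below it. The fitted log2 difference was -1.17 ± 0.27 (SE; limma adjusted p = 0.165). Without both libraries it was -1.06 with the sex term and -0.62 with no sex term. Kcnip2, a subunit of the transient outward channel, was at 67.6 CPM in WF10 and 0.802 CPM in KM01, and at 5.90 to 19.6 CPM in the other 8.

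Calcium handling genes had 3 higher and 5 lower of 31 at an unadjusted p under 0.05, against 9.99% and 3.74% of all genes. The median of the 31 was -0.42. Without both libraries it was -0.065 with the sex term and 0.03 with no sex term. Hrc, a calcium-binding protein of the sarcoplasmic reticulum, was at 42.5 CPM in KM01 and at 273 to 1064 CPM in the other 9 libraries. Gja1, which encodes the gap junction protein connexin 43, was at 258 to 624 CPM in wild type and 134 to 333 CPM in knockout, with the ranges overlapping. The log2 difference was -1.07 ± 0.29 (SE; limma adjusted p = 0.173).

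**Figure D5:**
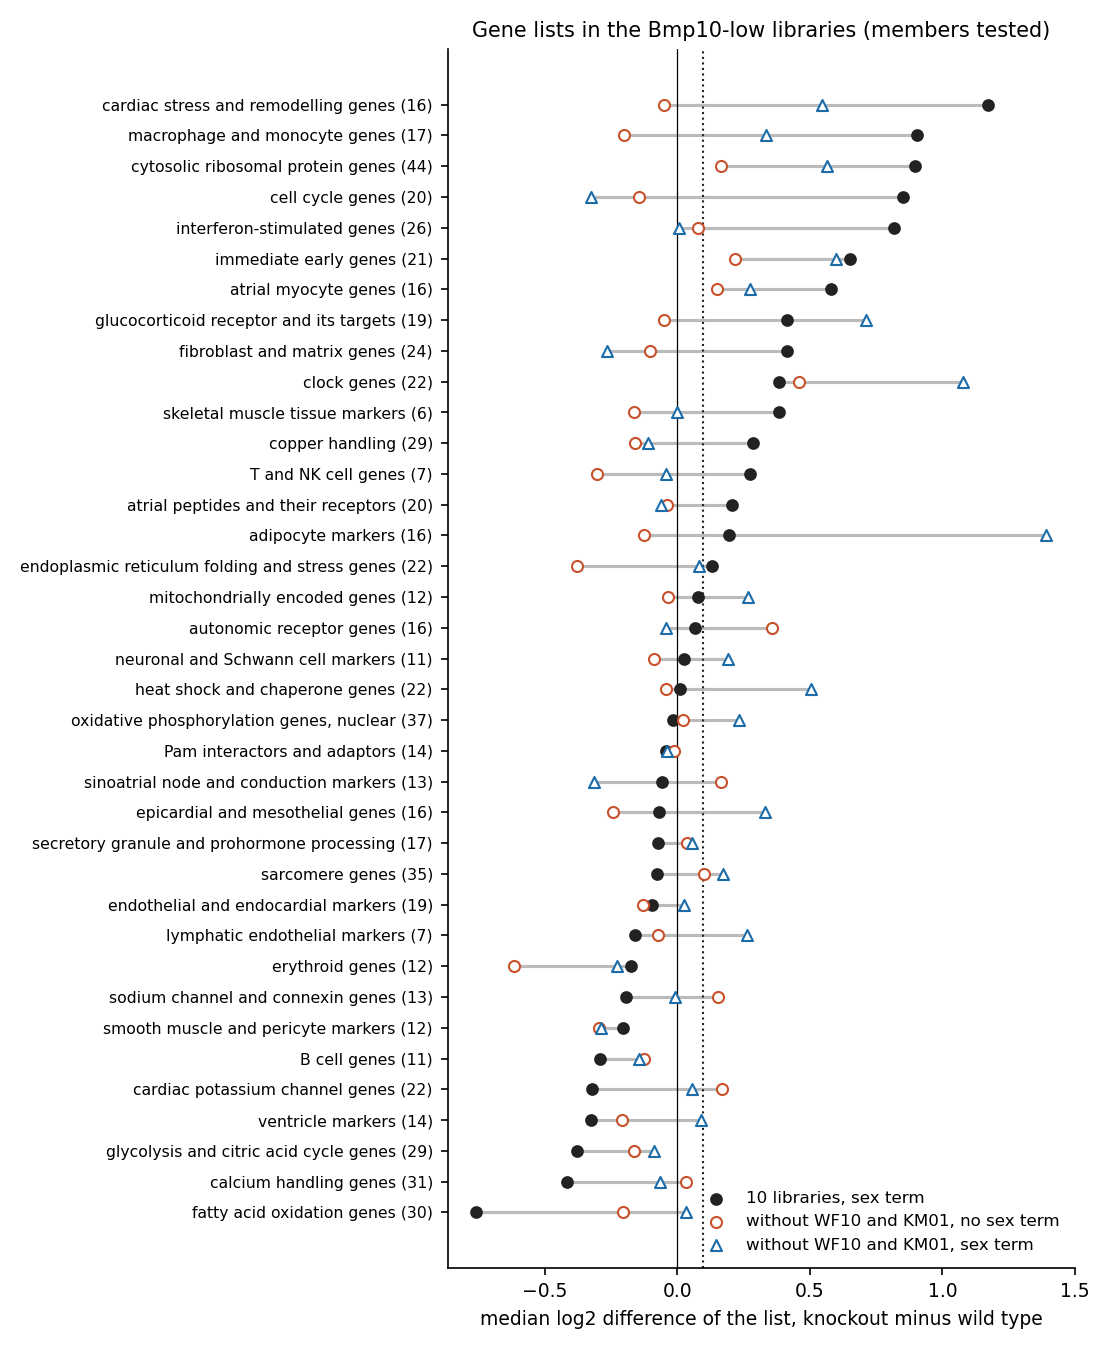
Median log2 difference, knockout minus wild type, of each gene list with at least 5 members tested (number in brackets), with all 10 libraries and a sex term (black), and without WF10 and KM01 with no sex term (open orange circles) or with the sex term (open blue triangles); the dotted line is the median of all genes (0.10). Cardiac stress genes lie at 1.17, -0.05 and 0.55 in that order, macrophage genes at 0.91, -0.20 and 0.33, fatty acid oxidation genes at -0.76, -0.21 and 0.032, and clock genes at 0.39, 0.46 and 1.08.

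Markers of the other cell types that an atrium can hold had 0 called members. The adipocyte markers were uneven within wild type. Their summed level was 3243 CPM in WM1 and 2572 CPM in WM2, and 426 to 1229 CPM in the other 8 libraries. The epicardial and mesothelial markers were lowest in WF10 and KM01, at 658 and 656 CPM, and at 1476 to 3613 CPM elsewhere. Fibroblast and matrix markers had a median log2 difference of 0.42, which without WF10 and KM01 was -0.26 with the sex term and -0.10 with no sex term. In the same order the medians were -0.09, 0.025 and -0.13 for endothelial markers and -0.20, -0.29 and -0.30 for smooth muscle markers. The 16 atrial myocyte genes tested had medians of 0.58, 0.28 and 0.15, and Pam was their only called member.

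Glucocorticoid receptor targets were read because the list holds Zbtb16, a transcription factor that glucocorticoids induce. Zbtb16 had 17.3 CPM in WM1, 17.4 in WM2, 19.3 in WM3, 14.2 in WF10 and 10.9 in WF12. In the knockouts it had 36.5 CPM in KM01, 38.8 in KF14, 60.8 in KF16, 17.9 in KF18 and 73.5 in KF19. KF18 lay within the wild-type range, and the other 4 knockouts lay above it. Its log2 difference was 1.43 ± 0.36 (SE; limma adjusted p = 0.165). It was 1.855 with the sex term and 1.35 with no sex term once WF10 and KM01 were left out. Of 19 genes of the list, 0 were called. At an unadjusted p under 0.05, 5 were higher and 1 lower, against 9.99% and 3.74% of all genes. The median log2 difference of the 19 was 0.42 with all 10 libraries. Without WF10 and KM01 it was 0.71 with the sex term and -0.05 with no sex term. Among 21 immediate early genes, which respond to stimuli within minutes, 0 were called and 5 higher lay under an unadjusted p of 0.05. The median log2 difference of the 21 was 0.65. Without WF10 and KM01 it was 0.60 with the sex term and 0.22 with no sex term. Nr4a3, a nuclear receptor of that list, was at 46.4 CPM in KF14 and 80.5 CPM in KF16, and at 0.445 to 9.06 CPM in the other 8 libraries.

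The knockout effect was set against that in the 15 Bmp10-high libraries, which share no library with the 10. Whether they share mice with the 10 is not given, and the fit had no term for the mouse. No gene was called for the difference between the effects (0.0% of 14005; limma with an interaction term and sex over 25 libraries), although 1022 (7.3%) lay under an unadjusted p of 0.05. edgeR on recovered reads also called 0. The effect on Pam was -3.12 in the Bmp10-low and -3.57 in the Bmp10-high libraries, and differed by 0.41 ± 0.35 (SE; limma adjusted p = 0.805 for the difference, which comes from 1 fit of all 25 libraries). The smallest p for a difference belonged to Arhgap20, Lclat1 and C130080G10Rik. Arhgap20, a GTPase-activating protein, had a log2 difference of -1.34 in the Bmp10-low and 0.38 in the Bmp10-high libraries (limma unadjusted p = 0.000160 for the difference, which did not pass). For Zbtb16 the differences were 1.43 and 1.501. For Fam46b they were 2.03 and 0.49, and for Ccl8 2.35 and 0.58, and neither difference between the classes passed the test.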

How the data were processed

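RNA sequencing of mouse atria was analysed from the deposited table of 25 libraries. Per the submitters' processing notes, the authors used HISAT2, HTSeq, DESeq2 and mm10, with no versions or annotation given. The deposited values of each library are CPM, made by the authors without division by gene length, although the file header says FPKM: all values of a library divided by 1 common step gave whole reads (100% within a tolerance of 0.001 reads). The reads and depths recovered from these steps entered edgeR 4.0.16 and DESeq2 1.42.0 as alternatives. The unit thus differed from the one foreseen, and the transformation planned for it was kept. Lines of symbols listed more than once (10 of 14467) were left out, and 0 columns of other samples were present. Depth ran from 2246887 to 6772947 reads in the 10 libraries, and the floor of 3 reads covers counting error only.

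A filter of 1 CPM or more in 5 or more of the 10 libraries removed 452 genes and kept 14005. The test of genotypes was limma 3.58.1 (R 4.3.3, lmFit, eBayes with trend) on log2(CPM + 1), which understates the change of low genes, with sex as a term. Adjusted p-values are Benjamini-Hochberg over all genes tested, and genes under 0.05 were called. The code was tested on simulated counts. Lists are given by counts and medians, with no test of the list. Differences between name sets are differences of means, and the LARA and CGI sets were also fitted alone. Alternatives covered the terms, the libraries, the scaling, the filter, the pseudocount and the tool, and 3 fits without the shallow libraries with edgeR or DESeq2 were added after seeing the data, as was the fit of the lists without them and with the sex term. Coordinates are from GENCODE M21 on GRCm38, in which 14325 of 14457 symbols (99.1%) were found.

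Members, gene lists and alternatives were chosen with earlier results of these data known. Named genes are Pam, Bmp10, the called genes, those of smallest p up to 10 in each direction, up to 3 members of each list by smallest p and the 3 of smallest p for the difference between Bmp10 classes. Others are said to be chosen with their values seen, apart from Xist and Ddx3y, which check the labelled sex. Not all genes that the rule names are described.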

Additional observations from a re-analysis of the deposited data

Results flagged for a closer look

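For 89 genes, those described and others followed with them but not all that the naming rule allows, the 5 libraries of each genotype made 178 groups. In these, 17 values lay far from the other 4 of their group, with a gap on log2(CPM + 1) of more than 0.71 of the group's range. That limit gives about 1 in 20 by chance for genes that are not selected. Many of the 89 were picked by smallest p or with their values seen, so that rate does not apply here. KM01 was far above the other knockouts for Nppb (4686 CPM), Efhd2 (309.9 CPM), Rpl35 (424.1 CPM), Wfdc17 (160.8 CPM) and Postn (1860 CPM). It was also far above them for Ltbp2 (99.82 CPM), S100a9 (166.8 CPM), Stmn1 (62.94 CPM), Ube2c (40.89 CPM) and Tnnt3 (147.5 CPM), and far below them for Nebl (147.1 CPM). WF10 was far below the other wild-type libraries for Efhd2 (9.346 CPM), Ap1s1 (15.58 CPM) and Mafk (13.35 CPM), and far above them for Kcnip2 (67.65 CPM) and Aqp7 (10.24 CPM). WM3 was far below the other wild-type libraries for Ptp4a3 (93.41 CPM), where all 5 knockouts were higher. KM01 and WF10, the least deep libraries, gave 16 of the 17 values, and both weigh much in the fit by which many of the genes were picked.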

How the results depend on the processing

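With all 10 libraries and a sex term 3 genes were called. Other terms gave 1 with no sex term, 2 with sex and log2 Bmp10 (Pam and Myl3) and 6 with sex and name set (Arntl, Rny1, Rny3, Dbp, 1110034G24Rik and Per2, without Pam). Fewer libraries gave 1 without WF10 and KM01 and with no sex term (1 with edgeR), 2 with a sex term (8 with edgeR, 46 with DESeq2), 195 in females alone (2 wild type, 4 knockout) and 12 in the CGI set alone, where the 1 knockout library is assumed to vary like the 2 wild types. Library weights from limma's arrayWeights gave 1883 and DESeq2 with all libraries 510, and the cause was not tested. Leaving out each library gave 0 (without KF14 or KF16) to 506 (without WF12), and 110 without KM01. Pam was called in 26 of 30 alternatives, and its limma adjusted p reached 0.139 without KF14. The count of genes without overlap was 46, 224 without WF10 and KM01, and 70 with median-ratio scaling. Fam46b turned to -0.0968 and Ccl8 to -0.2579 within the LARA set, Ccl8 to -0.0953 with edgeR without WF10 and KM01 and with no sex term, and S100a9 to -2.2603 in females alone. The difference between Bmp10 classes had 0 calls under all alternatives run. Of the 40 list medians, 17 kept their sign without WF10 and KM01 and with no sex term, and 23 with the sex term, a fit added for the lists after seeing the data, in which 2 members of any list were called against 1. No paired analysis was possible because the labels do not pair knockout with wild-type libraries. Depth limits WF10 and KM01 most, where 3 reads are 1.34 and 1.20 CPM.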
